A study of Mus musculus with 18 samples.

Results

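Interleukin 6, its signalling chain and the acute phase proteins made downstream of it were followed here in mouse alveolar type II cells through 10 genes of the 19938 measured under a single gene symbol. They were the ligand gene Il6, the signalling genes Il6st, Stat3 and Socs3, and the acute phase genes Lcn2, Itih4, Saa3, Saa1, Hp and Orm1, and all 10 were found. The set was chosen by measured values. Il6, Lcn2 and Itih4 were already known to be low in these Cebpa-deleted samples at 24 h, and Il6 also at 2 h, so the genotype differences of all 10 genes at 24 h, and that of Il6 at 2 h, are given as a description with no test. The same holds for changes over time of Il6, Lcn2 and Itih4 in Cebpa-deleted cells that end at 24 h. It also holds for the change of Il6 there from 0 to 2 h. These changes rest on the arrays used in that choice. Control arrays at 24 h, and for Il6 also at 2 h, were the other side of those genotype differences. Tests of these genes in control cells that use those arrays are therefore not independent of the choice. Gene expression was profiled on 18 arrays of RNA from type II cells isolated from mice of 7 to 8 weeks, 3 arrays in each of 6 groups. In the Cebpa-deleted mice the gene of the transcription factor C/EBPα was removed conditionally, in Clara cells beginning in early gestation and in type II cells around term. Their label lists CCSP, rtTA and the floxed Cebpa alleles and does not itself name Cre, and the promoter of the Clara cell secretory protein (CCSP) drives the rtTA activator. The control mice were littermates that carried the same floxed alleles without rtTA or without Cre. Each genotype was studied after 0, 2 and 24 h of hyperoxia, a raised concentration of inspired oxygen. The times come from the sample titles and the hyperoxia from the series design, whereas every sample description says air. The labels do not say whether arrays of a group came from separate animals, so each p-value reflects the spread of these samples, possibly only technical, and the small number of arrays limits precision.

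Interleukin 6 is a cytokine that binds its receptor together with gp130, the shared signalling receptor encoded by Il6st. JAK kinases attached to gp130 then phosphorylate STAT3, which enters the nucleus and switches on target genes. Among these is Socs3, whose product binds gp130 and the kinases and ends the signal. In liver this chain, together with C/EBP and NF-κB factors, drives the acute phase proteins, which bind iron, lipids or proteases during inflammation. Several of them are also made by lung epithelium. Type II cells make surfactant, and they release defence proteins into the airspace as well.

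Saa3 differed from Il6, Lcn2 and Itih4 in its course over time. The promoters of these 4 genes, which read lower in Cebpa-deleted cells at 24 h, are shown first. Each is the 250 bases before the annotated start of the gene, read 5′ to 3′ on the strand of the gene, from RefSeq's annotation of the mouse assembly GRCm38.p6. The windows are chr5:30012864-30013113 on the + strand for Il6, chr2:32387740-32387989 on the - strand for Lcn2, chr14:30886226-30886475 on the + strand for Itih4 and chr7:46715677-46715926 on the - strand for Saa3. Capitals mark matches to a C/EBP motif in Il6, Lcn2 and Saa3, an NF-κB motif in Il6 and a STAT motif in Itih4.
Il6: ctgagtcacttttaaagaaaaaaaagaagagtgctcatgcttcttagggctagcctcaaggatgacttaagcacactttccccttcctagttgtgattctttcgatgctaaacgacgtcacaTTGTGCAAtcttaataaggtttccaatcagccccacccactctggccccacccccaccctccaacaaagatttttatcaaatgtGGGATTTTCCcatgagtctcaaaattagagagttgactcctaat
Lcn2: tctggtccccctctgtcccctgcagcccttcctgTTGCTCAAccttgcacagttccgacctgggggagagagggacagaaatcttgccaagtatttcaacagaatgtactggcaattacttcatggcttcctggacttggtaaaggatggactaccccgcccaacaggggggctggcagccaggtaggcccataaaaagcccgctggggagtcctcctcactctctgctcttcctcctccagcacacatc
Itih4: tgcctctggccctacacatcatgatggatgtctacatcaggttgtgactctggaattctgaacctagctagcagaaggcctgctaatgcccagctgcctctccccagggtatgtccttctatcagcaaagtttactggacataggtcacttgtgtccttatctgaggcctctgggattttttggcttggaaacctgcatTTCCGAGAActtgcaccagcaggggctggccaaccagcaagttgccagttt
Saa3: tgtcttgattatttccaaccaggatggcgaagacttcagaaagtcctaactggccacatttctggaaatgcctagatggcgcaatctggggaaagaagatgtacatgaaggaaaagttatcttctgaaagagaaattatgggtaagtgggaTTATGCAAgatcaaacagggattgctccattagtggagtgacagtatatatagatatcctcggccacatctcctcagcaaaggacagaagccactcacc
The motifs searched on both strands were TTGCNNAA for C/EBP, TTCNNNGAA for STAT, and GGG, any 3 bases and TTCC for NF-κB. In Il6 the C/EBP match TTGTGCAA lies 128 to 121 bases before the start and the NF-κB match GGGATTTTCC 44 to 35 bases before it. The C/EBP match in Lcn2 is TTGCTCAA, 216 to 209 bases before the start, and in Saa3 it is TTATGCAA, 99 to 92 bases before the start. The match in Itih4 is the STAT motif TTCCGAGAA, 51 to 43 bases before the start. Of the other genes, Saa1 held the C/EBP match TTGCACAA, Socs3 held the STAT match TTCTTAGAA, and the windows of Il6st and Stat3 held none of these letters. The C/EBP motif was present in 9.56% of all 32851 RefSeq promoter windows of this length, the STAT motif in 7.02% and the NF-κB motif in 4.65%. A window was given for 8 of the 10 genes and not for Hp and Orm1. A match is a description of letters, and no binding was measured.

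Cebpa itself, the targeted gene, averaged 10.99 ± 0.05 in control and 10.56 ± 0.12 in Cebpa-deleted cells at 0 h (mean ± SD, n = 3 arrays, as in all groups below). These means were 10.52 ± 0.14 and 9.42 ± 0.52 at 2 h and 10.27 ± 0.17 and 8.43 ± 0.2 at 24 h. Values are log2 RMA levels. RMA turns the probe intensities of an array into a single log2 value per feature, so that a difference of 1 is a 2-fold change. At 24 h the Cebpa-deleted level was 28.1% of control. Arrays differed in the spread of their values. The interquartile range over genes was 2.89 to 3.06 on the 6 arrays at 0 h, 2.13 to 2.55 at 2 h, 2.44 to 2.52 in control and 1.82 to 2.13 in Cebpa-deleted arrays at 24 h. The genotype comparison at 24 h therefore sets arrays of narrower spread against arrays of wider spread, and spread and genotype cannot be told apart there. Among markers of type II cells the surfactant gene Sftpc averaged 13.69 to 14.6 over the groups. The mean over 14 such markers was 12.57 to 12.64 on the control arrays at 24 h, against 11.76 to 12.09 on the Cebpa-deleted arrays. By the test, 13 of 14 were lower in Cebpa-deleted cells, beside 26.4% of all genes, or 10 after quantile normalization. Tests are from limma, a linear model that shares the spread over genes, with Benjamini-Hochberg adjustment over the 19938 genes, and a gene passed at an adjusted p below 0.05.

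Il6, the ligand, read lower in Cebpa-deleted than in control cells at 0, 2 and 24 h, by 1.31-fold, 2.03-fold and 3.95-fold. At 0 h the control arrays read 9.1, 8.91 and 8.73 and the Cebpa-deleted arrays 8.58, 8.7 and 8.27. At 2 h the control arrays read 8.78, 8.64 and 8.94 and the Cebpa-deleted arrays 8.27, 7.74 and 7.28. At 24 h the control arrays read 8.54, 8.84 and 8.49 and the Cebpa-deleted arrays 6.44, 6.33 and 7.17. The Cebpa-deleted arrays were the lower ones at each time, with no overlap, and all 9 control arrays lay between 8.49 and 9.1. The difference, Cebpa-deleted minus control, was -0.39 (log2, SE 0.22) at 0 h, which did not pass the test (limma, adjusted p = 0.646). It was -1.02 (SE 0.22), or 2.03-fold lower, at 2 h. It was -1.98 (SE 0.22), or 3.95-fold lower, at 24 h, so that the Cebpa-deleted level was 25.3% of control. As a description, the difference at 24 h minus that at 2 h was -0.96 (SE 0.31). With the arrays' interquartile range added as a covariate the difference at 24 h was -0.92, and the one at 24 h minus that at 2 h turned to 0.31.

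Over time, Il6 did not change by the test in control cells. The changes were -0.13 from 0 to 2 h, -0.29 from 0 to 24 h and -0.16 from 2 to 24 h (limma, adjusted p = 0.615, 0.266 and 0.666). With the covariate the first of these turned to 1.40 (adjusted p = 0.0337), the second to 0.80 (adjusted p = 0.0504), and the last was -0.61 (adjusted p = 0.0268). In Cebpa-deleted cells, as a description, the Il6 level at 2 h minus that at 0 h was -0.75, and the level at 24 h minus that at 2 h was -1.12, or 2.17-fold lower. With the covariate these were 0.49 and -0.30.

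**Figure D1:**
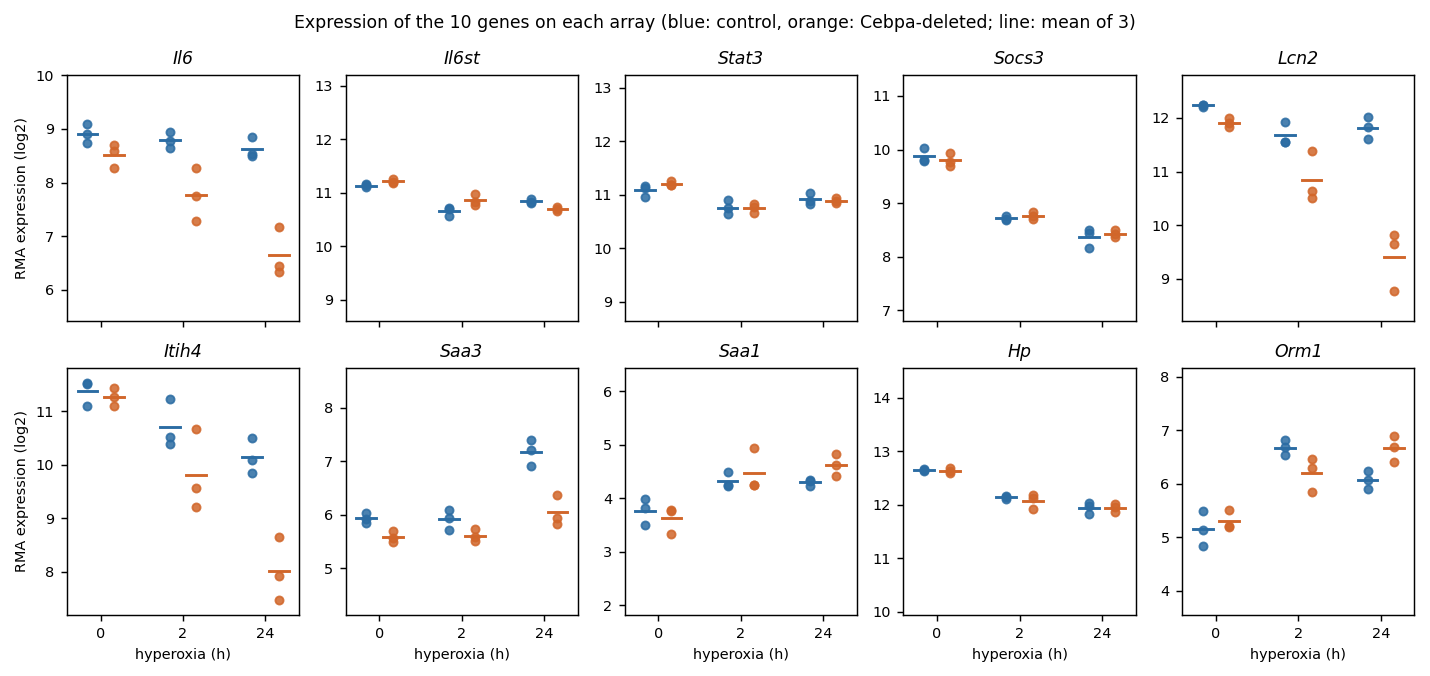
Level of each of the 10 genes on each array (log2 RMA units, y axes of equal span but different position) against hours of hyperoxia, with control arrays in blue, Cebpa-deleted arrays in orange and a line at each mean of 3. Il6, Lcn2 and Itih4 lie lowest on the Cebpa-deleted arrays at 24 h, at 6.33 to 7.17, 8.77 to 9.81 and 7.48 to 8.65, while Saa3 is highest on the control arrays at 24 h, at 6.92 to 7.39.

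The receptor and signalling genes of the chain, Il6st, Stat3 and Socs3, differed between the genotypes by at most 0.20 on the log2 scale at any time. Il6st, the gp130 receptor gene, read 10.82, 10.81 and 10.88 on the control arrays after 24 h and 10.66, 10.7 and 10.74 on the Cebpa-deleted arrays. The 2 groups did not overlap, but the difference was only -0.14 (SE 0.08). At 2 h Il6st read 10.72, 10.69 and 10.56 in control and 10.77, 10.97 and 10.83 in Cebpa-deleted cells, the opposite order. That difference of 0.20 (SE 0.08) did not pass (limma, adjusted p = 0.315). Stat3, the transcription factor that carries the signal, read 11.04, 10.83 and 10.89 in control and 10.88, 10.84 and 10.94 in Cebpa-deleted cells at 24 h. These groups overlapped, with a difference of -0.03 (SE 0.09), which was 0.30 after a second quantile normalization. The Stat3 difference at 2 h was -0.01 (95% interval -0.21 to 0.19; limma, adjusted p = 0.987).

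Socs3, the feedback inhibitor that STAT3 induces, read 8.5, 8.45 and 8.17 on the control arrays after 24 h and 8.37, 8.49 and 8.43 on the Cebpa-deleted arrays. The groups overlapped, and the difference was 0.06 (SE 0.10). It was 0.38 after quantile normalization and -0.01 after median centring. At 2 h the Socs3 difference was 0.05 (95% interval -0.17 to 0.26; limma, adjusted p = 0.935). Socs3 was lower after hyperoxia in both genotypes. At 0 h it read 9.81, 10.03 and 9.79 in control cells and 9.7, 9.76 and 9.93 in Cebpa-deleted cells. It fell by 1.16 in control cells and by 1.03 in Cebpa-deleted cells from 0 to 2 h (limma, adjusted p = 1.01e-07 and 6.54e-07). From 2 to 24 h it fell by 0.35 in control cells (adjusted p = 0.029) and by 0.34 in Cebpa-deleted cells (adjusted p = 0.0169). Both later calls were lost in some fits that left out 1 array. In control cells these were the fits without any 1 of the control arrays at 2 h or without control replicate 3 at 24 h. In Cebpa-deleted cells they were those without replicate 2 at 2 h or replicate 1 at 24 h. The latter call was also lost after quantile normalization, with only the groups compared, and with the interquartile range as a covariate. It was lost too with the mean of all Socs3 features. A second Socs3 feature, not used in the fit, read 6.64, 6.54 and 6.59 in control and 6.94, 7.16 and 6.7 in Cebpa-deleted cells at 24 h, where its groups did not overlap.

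Lcn2, which encodes lipocalin 2, a protein that binds bacterial siderophores and so withholds iron, showed the widest genotype gap of the 10 genes at 24 h. At 0 h it read 12.21, 12.25 and 12.25 in control and 12, 11.9 and 11.83 in Cebpa-deleted cells. After 2 h it read 11.56, 11.55 and 11.93 in control and 11.38, 10.64 and 10.5 in Cebpa-deleted cells. After 24 h it read 11.83, 12.01 and 11.61 in control and 9.65, 8.77 and 9.81 in Cebpa-deleted cells. The groups did not overlap at any time, and the Cebpa-deleted arrays were the lower ones throughout. The difference was -0.33 (SE 0.22; limma, adjusted p = 0.758) at 0 h and -0.84 (SE 0.22; adjusted p = 0.07) at 2 h, neither of which passed. At 24 h it was -2.40 (SE 0.22), or 5.29-fold lower, 18.9% of the control level, and -1.39 with the interquartile range as a covariate. Lcn2 in control cells did not differ by the test between 2 and 24 h (0.14, limma, adjusted p = 0.722). In Cebpa-deleted cells it fell by 1.07 from 0 to 2 h (adjusted p = 0.000558), a change that turned to 0.12 with the covariate. The level at 24 h minus that at 2 h there was -1.42, or 2.68-fold lower, given without a test because those 24 h arrays were used to choose Lcn2, and it was -0.64 with the covariate.

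Lcn2 is also a granule gene of neutrophils, so the level of neutrophil markers is given beside it. The mean of 14 neutrophil markers was 5.93 to 5.98 in control and 6.22 to 6.31 in Cebpa-deleted arrays at 24 h. Whether neutrophils had a part in the Lcn2 difference was not tested. Of the 14 markers, 5 were higher in Cebpa-deleted cells at 24 h (Ltf, Camp, S100a8, Mpo and Ngp) and 0 were lower. These counts stand beside 24.3% of all genes higher and 26.4% lower. After quantile normalization 2 of the markers were higher. The surface marker Ly6g differed by 0.38 (limma, adjusted p = 0.0562) and the elastase gene Elane by 0.08 (adjusted p = 0.507), neither of which passed. No detection call was used, so which markers were at background was not determined.

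Itih4 is a heavy chain gene of the inter-alpha-trypsin inhibitor family and an acute phase gene in liver. Its course in Cebpa-deleted cells was like that of Lcn2, with more spread between arrays. In control cells Itih4 averaged 11.38, 10.71 and 10.15 at 0, 2 and 24 h, and Lcn2 12.23, 11.68 and 11.82. At 0 h Itih4 read 11.51, 11.53 and 11.1 in control and 11.43, 11.27 and 11.09 in Cebpa-deleted cells. After 2 h it read 10.39, 10.52 and 11.22 in control and 10.67, 9.56 and 9.21 in Cebpa-deleted cells. After 24 h it read 10.08, 10.5 and 9.85 in control and 7.92, 7.48 and 8.65 in Cebpa-deleted cells. The groups overlapped at 0 and 2 h and separated at 24 h. The difference was -0.12 (SE 0.32; limma, adjusted p = 0.97) at 0 h and -0.90 (SE 0.32; adjusted p = 0.23) at 2 h. At 24 h it was -2.13 (SE 0.32), or 4.36-fold lower, 22.9% of the control level, and -0.54 with the interquartile range as a covariate. In Cebpa-deleted cells the Itih4 level at 24 h minus that at 0 h was -3.24, or 9.47-fold lower, and minus that at 2 h it was -1.79, or 3.46-fold lower. Both rest on the arrays used to choose Itih4 and have no test, and with the covariate they were -0.15 and -0.56. In control cells Itih4 fell by 1.23 from 0 to 24 h (limma, adjusted p = 0.00296), a value that turned to 0.39 with the interquartile range as a covariate. From 2 to 24 h it differed by -0.56 in control cells (adjusted p = 0.257), which with the covariate was -1.23 (adjusted p = 0.00331). Both changes use the control arrays at 24 h, which were part of the genotype difference in view at the choice.

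Saa3, the serum amyloid A gene that is expressed outside the liver in mice, followed another course. It rose between 2 and 24 h, by 1.25 in control cells and by 0.43 in Cebpa-deleted cells. At 0 h it read 5.84, 5.93 and 6.03 in control and 5.49, 5.69 and 5.57 in Cebpa-deleted cells. After 2 h it read 6.09, 5.72 and 5.95 in control and 5.59, 5.74 and 5.51 in Cebpa-deleted cells. After 24 h it read 7.21, 6.92 and 7.39 in control and 6.37, 5.94 and 5.83 in Cebpa-deleted cells. All 3 control arrays at 24 h lay above every other array of the study for this gene. The rise in control cells was 2.38-fold (SE 0.14 on the log2 scale; limma, adjusted p = 1.38e-05). This was the one change of the 10 genes between 2 and 24 h in control cells that passed in all 18 fits that left out 1 array, from 1.14 to 1.38, and in every other setting that gave it a value. The fit on the upper 60 percent of genes gave it none, since Saa3 was not among them. The rise in Cebpa-deleted cells (SE 0.14; adjusted p = 0.0266) did not pass without replicate 2 or 4 at 2 h, without replicate 1 at 24 h, or after quantile normalization. As a description, the genotype difference at 24 h was -1.13 (SE 0.14), or 2.18-fold lower, 45.8% of control, and the difference at 24 h minus that at 2 h was -0.82 (SE 0.20). The Saa3 difference was -0.35 at 0 h (adjusted p = 0.385) and -0.31 at 2 h (adjusted p = 0.414), which did not pass (limma).

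**Figure D2:**
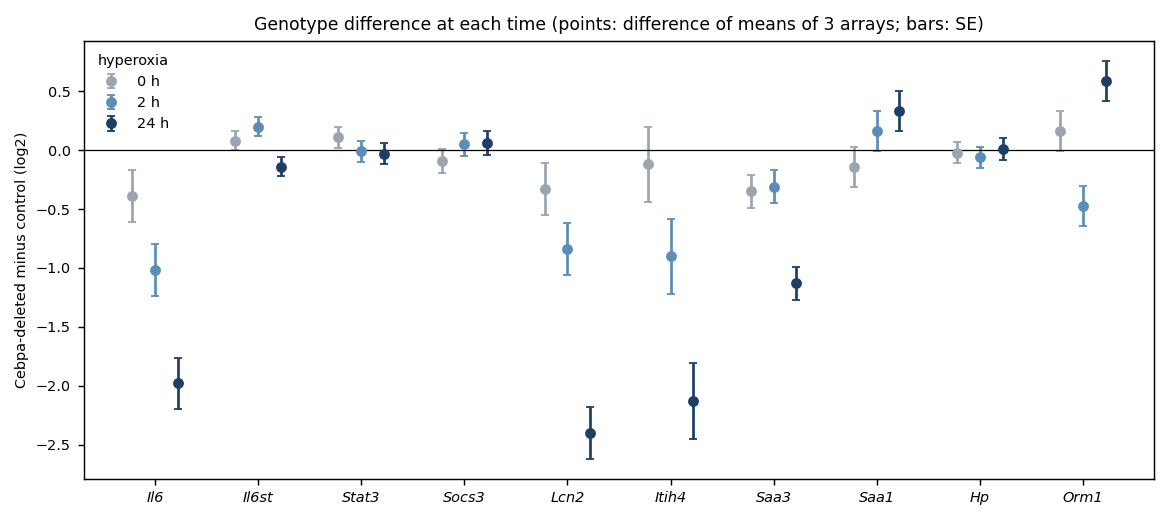
Difference between Cebpa-deleted and control cells (log2, y axis) for each of the 10 genes at 0, 2 and 24 h of hyperoxia, as the difference of means of 3 arrays with the SE of the model as bars. Il6, Lcn2 and Itih4 move downward from 0 to 24 h, to -1.98, -2.40 and -2.13, whereas Stat3, Socs3 and Hp stay within 0.11 of 0.

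The remaining acute phase genes did not share this course. Hp encodes haptoglobin, which binds free haemoglobin. It read 12.03, 11.97 and 11.82 in control and 11.96, 12.02 and 11.86 in Cebpa-deleted cells at 24 h, with overlapping groups and a difference of 0.01 (SE 0.09). At 2 h the Hp difference was -0.06 (95% interval -0.25 to 0.13; limma, adjusted p = 0.891). Saa1, another serum amyloid A gene, read 4.33, 4.34 and 4.23 in control and 4.63, 4.83 and 4.42 in Cebpa-deleted cells at 24 h. The difference of 0.33 (SE 0.17) had the direction opposite to Saa3. With the interquartile range as a covariate it was -0.45 (SE 0.22), the same direction as Saa3. Saa1 has a near-identical copy, Saa2, and the array may not tell them apart. Saa2 differed by 0.10 at 24 h (adjusted p = 0.404).

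Orm1 encodes orosomucoid, a plasma carrier of lipophilic molecules, and its genotype difference changed sign between 2 and 24 h. At 0 h it read 4.83, 5.14 and 5.49 in control and 5.19, 5.22 and 5.51 in Cebpa-deleted cells, which overlapped. After 2 h it read 6.81, 6.68 and 6.54 in control and 5.84, 6.3 and 6.47 in Cebpa-deleted cells, and after 24 h 6.08, 5.91 and 6.24 in control and 6.89, 6.69 and 6.41 in Cebpa-deleted cells. The Cebpa-deleted arrays were all below control at 2 h and all above it at 24 h. The difference at 2 h was -0.47 (SE 0.17; limma, adjusted p = 0.26), which did not pass. At 24 h it was 0.59 (SE 0.17), or -0.01 with the interquartile range as a covariate. Orm1 fell by 0.60 from 2 to 24 h in control cells (adjusted p = 0.0299) and rose by 0.46 in Cebpa-deleted cells (adjusted p = 0.0497). The fall was lost without control replicate 1 or 2 at 2 h or at 24 h, and the rise passed in only 5 of 18 fits that left out 1 array. The related genes Orm2 and Orm3 were higher in Cebpa-deleted cells at 24 h by 0.43 (adjusted p = 0.0218, or -0.05 with the covariate) and 0.74 (adjusted p = 0.00179). The signal of these probes may be shared among the 3 genes.

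By count, 0 of 10 genes passed the genotype test at 0 h (1 at an unadjusted p below 0.05), beside 0.677% of all 19938 genes higher and 0.181% lower. At 2 h, where Il6 was part of the choice, 0 of the 9 other genes passed in limma (5 at an unadjusted p below 0.05), beside 1.2% of all genes higher and 0.206% lower. After quantile normalization 251 of all genes were higher and 96 lower at 2 h, against 239 and 41. Without Cebpa-deleted replicate 2 at 2 h the 0 became 2 (Lcn2 and Itih4), and without Cebpa-deleted replicate 2 at 24 h it became 1 (Lcn2). At 24 h, where the choice of genes used this contrast, 4 were lower and 1 higher, beside 26.4% of all genes lower and 24.3% higher. With the interquartile range as a covariate 0 of the 10 passed at 24 h, and the differences were -0.92 for Il6, -1.39 for Lcn2, -0.54 for Itih4 and -1.18 for Saa3. With arrays centred on their medians 3606 of all genes were higher and 6069 lower at 24 h, against 4852 and 5258. The median difference of the 10 genes was -0.10 at 0 h, -0.18 at 2 h and -0.08 at 24 h, against -0.00, -0.02 and 0.05 over all genes.

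Arrays of the 2 genotypes separated without overlap for several genes. At 0 h the Cebpa-deleted arrays were all below control for Il6, Lcn2 and Saa3 and all above for Il6st and Stat3, beside 8.77% of all genes below and 8.49% above. At 2 h they were all below for Il6, Lcn2 and Orm1 and all above for Il6st, beside 5.56% of all genes below and 6.95% above. At 24 h they were all below for Il6, Il6st, Lcn2, Itih4 and Saa3 and all above for Saa1 and Orm1, beside 30.4% and 31.7%. Stat3, Socs3 and Hp overlapped at 24 h. No gene of the 19938 passed the test of the genotype difference at 2 h minus that at 0 h (limma), so 0% were higher and 0% lower. Among the 10 genes, 1 had an unadjusted p below 0.05 there, Orm1 (-0.63, limma, adjusted p = 0.685).

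**Figure D3:**
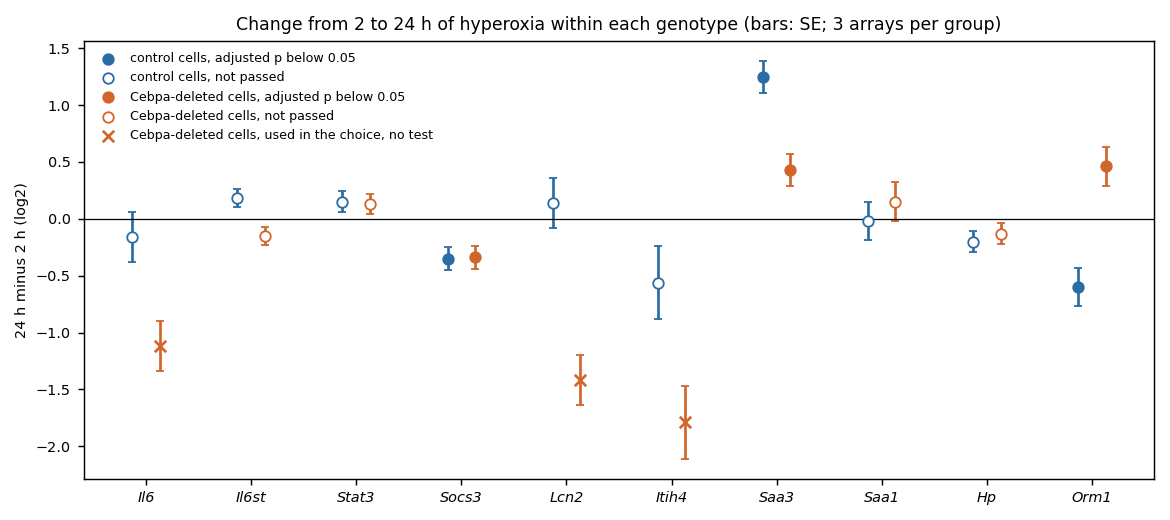
Change from 2 to 24 h of hyperoxia (log2, y axis) for each gene in control cells (blue) and Cebpa-deleted cells (orange), with SE bars, filled points for an adjusted p below 0.05 and open points otherwise. Crosses mark Il6, Lcn2 and Itih4 in Cebpa-deleted cells, at -1.12, -1.42 and -1.79, which rest on the arrays used to choose them and have no test. Saa3 rose by 1.25 in control and 0.43 in Cebpa-deleted cells.

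Within each genotype the time courses were tested on all genes. From 2 to 24 h, 1 of the 10 genes rose (Saa3) and 2 fell (Socs3 and Orm1) in control cells, beside 7.97% of all genes higher and 4.46% lower. In Cebpa-deleted cells over the same time 2 of the 7 genes other than Il6, Lcn2 and Itih4 rose (Saa3 and Orm1) and 1 fell (Socs3), beside 11.8% of all genes higher and 19.6% lower. Of these 3 calls, 0 were left without Cebpa-deleted replicate 2 at 2 h, without replicate 1 at 24 h, or with the interquartile range as a covariate. In control cells the count of 3 was 1 without replicate 1 or 2 at 2 h.

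Changes from 0 h carry the wider spread of the 0 h arrays, and several turned direction with a second quantile normalization. From 0 to 2 h in control cells 5 of 10 genes were lower (Il6st, Stat3, Socs3, Lcn2 and Hp) and 2 higher (Saa1 and Orm1), beside 39.4% of all genes lower and 30.7% higher, but Il6st, Stat3, Saa1 and Hp turned to 0.08, 0.23, -0.07 and 0.03 after that normalization. In Cebpa-deleted cells 6 of the 9 genes other than Il6 were lower and 2 higher from 0 to 2 h, beside 36.2% and 26.9%, and Il6st and Stat3 turned to 0.18 and 0.09. From 0 to 24 h, 4 of 10 were lower (Il6st, Socs3, Itih4 and Hp) and 3 higher (Saa3, Saa1 and Orm1) in control cells, beside 34.6% lower and 25.3% higher, and Il6st turned to 0.22. In Cebpa-deleted cells 4 of the 7 other than Il6, Lcn2 and Itih4 were lower and 3 higher from 0 to 24 h, beside 41.5% and 36%, 0 of these calls were left with the covariate, and Il6st, Stat3 and Hp turned to 0.32, 0.50 and 0.05. Socs3 fell in both genotypes from 0 h to either time under both normalizations. Orm1 rose from 0 to 2 h by 1.52 in control cells and by 0.90 in Cebpa-deleted cells (limma, adjusted p = 1.39e-06 and 0.00028). With the covariate these changes of Orm1 were 0.66 and 0.19 and did not pass (limma, adjusted p = 0.269 and 0.737). Hp fell from 0 to 2 h by 0.51 in control cells and by 0.56 in Cebpa-deleted cells as deposited (limma, adjusted p = 5.83e-05 and 3.95e-05).

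The other genes of the pathway were taken from 10 lists, which held 130 measured genes besides the 10. At 24 h, 23 of the 130 were higher and 40 lower in Cebpa-deleted cells, beside 24.3% of all genes higher and 26.4% lower, with a median of -0.07 against 0.05 over all genes. The counts of single lists at 24 h below stand beside the same 24.3% and 26.4%. Quantile normalization gave 23 higher and 19 lower, and the interquartile range as a covariate left 0, with 4 calls among all genes. At 2 h 4 of 130 were higher and 1 lower, beside 1.2% and 0.206%.

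Of the 8 cytokines of the family besides Il6, 0 were lower at 24 h, or 1 after quantile normalization, and 3 were higher: Lif, the leukaemia inhibitory factor gene, by 0.65 (SE 0.16; limma, adjusted p = 0.00455), Osm, the oncostatin M gene, by 0.38 (adjusted p = 0.0344) and Il27 by 0.29 (adjusted p = 0.0414). Il27 turned to -0.20 with the interquartile range as a covariate. Lif averaged 6.73 ± 0.14 in control and 7.38 ± 0.13 in Cebpa-deleted cells at 24 h. Lif fell by 0.61 in control cells from 2 to 24 h (adjusted p = 0.0203). Of 5 other receptor genes 1 was higher, Il27ra, by 0.53 (adjusted p = 0.0166; -0.38 with the covariate). The gene of the interleukin 6 receptor itself, Il6ra, named for its role after its value was seen, differed by -0.09 (adjusted p = 0.598). Osmr, the oncostatin M receptor gene, fell by 0.80 from 2 to 24 h in Cebpa-deleted cells (limma, adjusted p = 0.000177) and by 0.34 in control cells (adjusted p = 0.0485).

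Of 13 other JAK and STAT signalling genes, 2 were higher and 4 lower in Cebpa-deleted cells at 24 h. Stat4 was higher by 0.89 (limma, adjusted p = 0.00201), and the adaptor gene Shc1 differed by -0.85 (adjusted p = 0.000433), Stat6 by -0.55 (adjusted p = 0.000304) and the docking protein gene Gab1 by -0.51 (adjusted p = 0.00136). After quantile normalization this list held 5 higher and 2 lower. The kinase genes Jak1 and Jak2, named for their role after their values were seen, differed by 0.03 and 0.08 (adjusted p = 0.763 and 0.546).

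Of 14 feedback inhibitors other than Socs3, 9 were lower at 24 h and 0 higher, with a median of -0.41, beside 26.4% and 24.3% of all genes. Socs2, which restrains growth hormone signalling, averaged 10.22 ± 0.12 in control and 9.06 ± 0.43 in Cebpa-deleted cells, a difference of -1.15 (SE 0.17; limma, adjusted p = 0.000182). The phosphatase gene Ptpn1 differed by -0.58, Pias1, which encodes an inhibitor of activated STAT proteins, by -0.57, and Cish by -0.55 (adjusted p = 0.00217, 0.000959 and 0.00336). After quantile normalization the list held 3 lower and 2 higher, Socs2 at -0.82 among the lower, so that the count in this list depended on the scaling. Of 20 STAT3 target genes 6 were lower and 2 higher, and after quantile normalization 2 and 3. Vegfa, the endothelial growth factor gene, differed by -0.69 (adjusted p = 0.000659) and the kinase gene Pim1 by 0.57 (adjusted p = 0.00245). The C/EBP family genes Cebpb and Cebpd, named after their values were seen, differed by -0.26 (adjusted p = 0.0593) and -0.23 (adjusted p = 0.284).

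**Figure D4:**
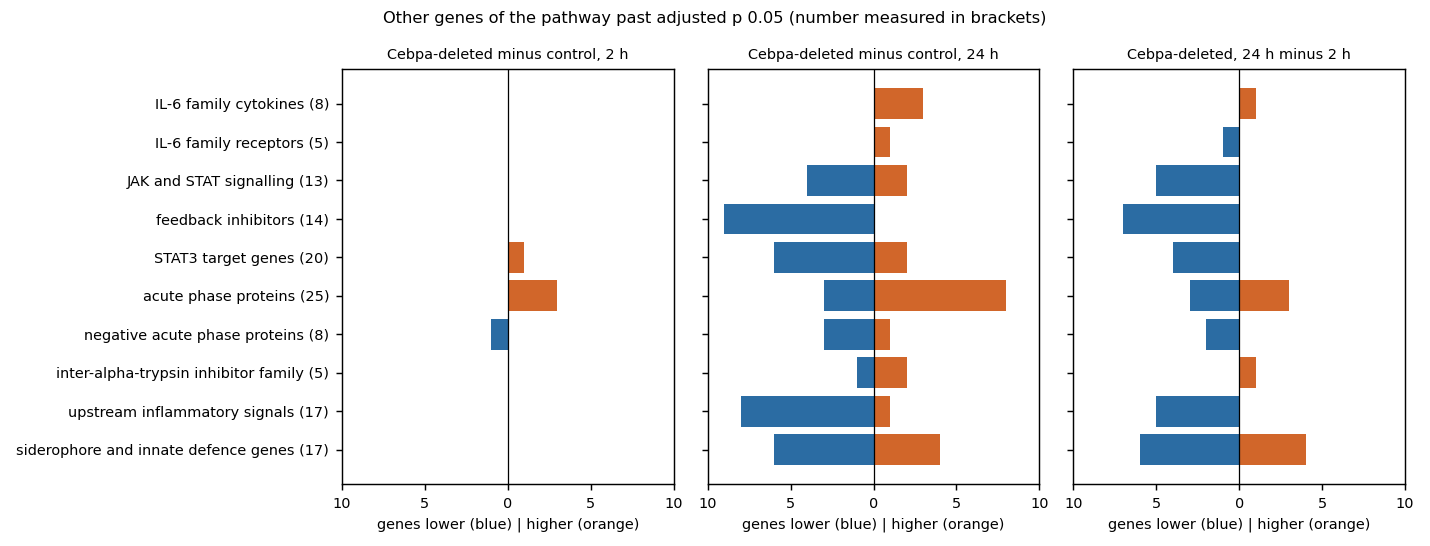
Number of genes in each of 10 pathway lists, without the 10 genes themselves, that were lower (blue, left) or higher (orange, right) at an adjusted p below 0.05, for Cebpa-deleted minus control cells at 2 and 24 h and for Cebpa-deleted cells from 2 to 24 h. At 24 h the feedback inhibitors held 9 lower and 0 higher of 14, and the acute phase proteins 3 lower and 8 higher of 25.

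The acute phase proteins outside the 10 genes went in both directions at 24 h, 8 of 25 higher and 3 lower. Lbp, which encodes the lipopolysaccharide binding protein, averaged 10.65 ± 0.33 in control and 9.64 ± 0.37 in Cebpa-deleted cells, a difference of -1.01 (SE 0.20; limma, adjusted p = 0.000944). It fell by 1.31 in Cebpa-deleted cells from 2 to 24 h (adjusted p = 0.000304). The metallothionein gene Mt2 averaged 11.71 ± 0.14 in control and 10.82 ± 0.2 in Cebpa-deleted cells, a difference of -0.89 (SE 0.11; adjusted p = 6.32e-05). It rose by 0.37 in control cells from 2 to 24 h (adjusted p = 0.0396) and fell by 0.77 in Cebpa-deleted cells (adjusted p = 0.000318). Hamp, the gene of the iron hormone hepcidin, averaged 4.66 ± 0.33 in control and 5.53 ± 0.18 in Cebpa-deleted cells. It was higher by 0.88 (adjusted p = 0.00353) and lay far below Lbp and Mt2 on the scale. Whether direction in this list went with level, on arrays of unlike spread, was not tested. The direction of Lbp, Mt2 and Hamp was the same under both normalizations and with the covariate.

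At 2 h 3 complement genes of the same list were higher in Cebpa-deleted cells. Serping1, the C1 inhibitor gene, was higher by 1.23 (SE 0.21; limma, adjusted p = 0.00684), C4b by 1.01 (adjusted p = 0.00835) and Cfb by 0.79 (adjusted p = 0.0165). Il4ra, an interleukin 4 receptor gene in the list of STAT3 targets, was higher by 0.79 at 2 h (adjusted p = 0.00168) and by 0.45 at 0 h (adjusted p = 0.0483). Rbp4, a negative acute phase gene that encodes the retinol carrier, was lower by the test at each time, with differences of -0.54, -0.69 and -0.85 at 0, 2 and 24 h (adjusted p = 0.0322, 0.00654 and 0.000113). These 5 calls at 2 h became 2 without control replicate 3 and 1 without Cebpa-deleted replicate 3 at that time, 11 without Cebpa-deleted replicate 2, and 0 when only the groups compared entered the fit.

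In the inter-alpha-trypsin inhibitor family, to which Itih4 belongs, 2 of the 5 other genes were higher and 1 lower at 24 h. Itih1, another heavy chain gene, differed by -0.68 (limma, adjusted p = 0.0013), and Itih3 was higher by 0.48 (adjusted p = 0.00412). Ambp, the gene of the light chain bikunin, was higher by 0.44 (adjusted p = 0.00579). Among 8 negative acute phase genes, which fall in liver during inflammation, 3 were lower (Rbp4, Trf by -0.66 and Alb by -0.51) and 1 higher (Ahsg by 0.37; -0.11 with the covariate), and Alb turned to 0.02 with the covariate.

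Of 17 genes in a list of upstream inflammatory signals, which also holds chemokine genes, 8 were lower and 1 higher at 24 h. Their median was -0.26, and after quantile normalization 1 was lower and 2 higher. Traf6 and Myd88, adaptor genes of Toll-like receptor signalling, differed by -0.46 and -0.41 (limma, adjusted p = 0.0015 and 0.00488), and the chemokine gene Cxcl1 by -0.45 (adjusted p = 0.00995). Ccl2, another chemokine gene, was higher by 0.60 (adjusted p = 0.0261; -0.13 with the covariate). Il1a fell by 1.54 in Cebpa-deleted cells from 2 to 24 h (SE 0.31; adjusted p = 0.00193) and Myd88 by 0.87 (adjusted p = 8.85e-05).

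Over all 130 pathway genes, 8 rose and 33 fell in Cebpa-deleted cells from 2 to 24 h, beside 11.8% and 19.6% of all genes, with a median of -0.13 against 0.02 over all genes. Quantile normalization gave 10 and 16, and the covariate 0 and 2. The 41 calls became 25 without Cebpa-deleted replicate 2 at 2 h and 22 or 21 without replicate 1 or 2 at 24 h. In control cells 17 rose and 9 fell, beside 7.97% and 4.46% of all genes, or 13 and 11 after quantile normalization. Those 26 calls became 11 without control replicate 1 at 2 h or at 24 h, 12 without replicate 2 at 2 h and 14 without replicate 3 at 24 h. The adaptor gene Gab2 rose by 0.70 in control cells (limma, adjusted p = 0.000509).

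Markers of other cell types than type II cells also differed between the genotypes. Endothelial markers averaged 7.97 to 8.6 on the control at 24 h and 8.82 to 8.94 on the Cebpa-deleted arrays, with 14 of 16 higher and 1 lower, and 8 of 16 were already higher at 0 h and 12 of 16 at 2 h. Lymphocyte markers averaged 6.34 to 6.91 in control and 7.14 to 7.43 in Cebpa-deleted cells at 24 h, with 7 of 13 higher. Fibroblast and smooth muscle markers averaged 6.94 to 7.41 and 7.5 to 7.68, with 6 of 12 higher. Macrophage markers averaged 6.72 to 7.02 and 6.87 to 7.13, with 3 of 13 higher and 2 lower. Type I cell markers were lower, 9.39 to 9.94 in control and 8.37 to 8.73 in Cebpa-deleted cells, with 7 of 8 lower. Airway secretory markers ranged from 9.65 to 10.58 in control and from 10.42 to 10.83 in Cebpa-deleted cells, with 3 of 8 higher, and 2 of 7 ciliated cell markers were higher. These counts stand beside 24.3% of all genes higher and 26.4% lower at 24 h, and 0.677% higher at 0 h and 1.2% higher at 2 h. The part of these markers in the values of Il6, Lcn2, Itih4 and Saa3 was not tested. In RNA of whole isolates, fewer cells of a type and less RNA per cell cannot be told apart.

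**Figure D5:**
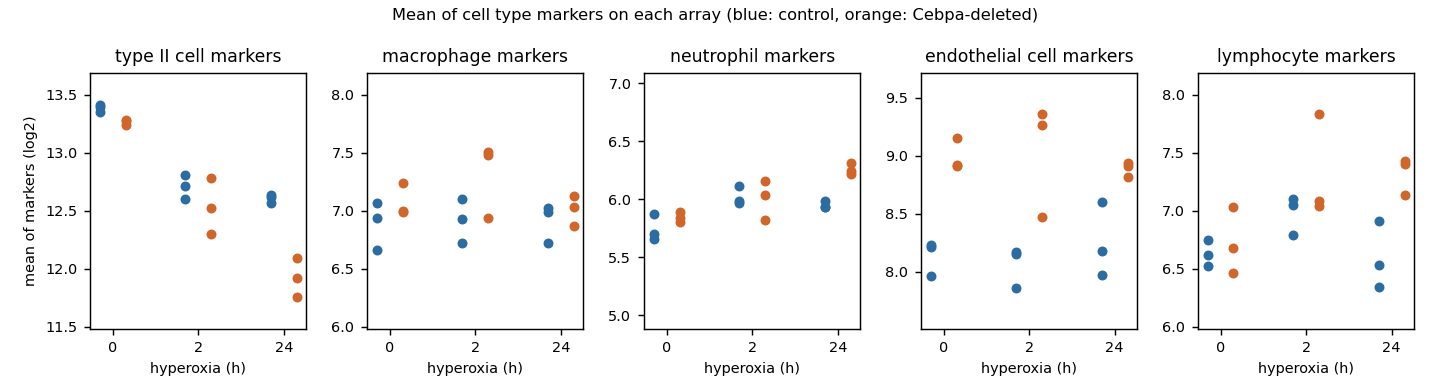
Mean level of the markers of 5 cell types on each array (log2 RMA units, y axes of equal span) against hours of hyperoxia, with control arrays in blue and Cebpa-deleted arrays in orange. Type II markers are lowest on the Cebpa-deleted arrays at 24 h, at 11.76 to 12.09, and neutrophil markers are highest there, at 6.22 to 6.31.

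Genes known only by a RIKEN or predicted-gene name were passed over in this ranking. Over the 18 arrays the gene among the rest whose values followed Il6 most closely was Lcn2, with Pearson r = 0.966. It was r = 0.973 over the 12 arrays at 2 and 24 h. After it came Smpd1 (r = 0.95), Tinag (r = 0.95), C6 (r = 0.947) and Cdkl2 (r = 0.946). For Lcn2 the closest were Tinag (r = 0.972), Anpep (r = 0.97), Cadm1 (r = 0.968), Itga9 (r = 0.966) and Il6. Itih4 correlated with Il6 at r = 0.93 and with Lcn2 at r = 0.95, whereas Saa3 correlated with them at 0.11 and 0.10. Over the 12 arrays at 2 and 24 h the values were 0.96 and 0.95 for Itih4 and 0.31 and 0.38 for Saa3. These are descriptions of likeness without a test, since the 18 arrays share 6 groups, and the genotype gap at 24 h weighs in each value.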

How the data were processed

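RNA was extracted with guanidine thiocyanate and biotin labelled for the arrays, per the labels' protocols. The deposited values are log2 expression levels, and the submitters' processing notes name RMA as the authors' method. The RMA version, the arrays normalized together, any filter and the build are not given in the sources used here. Of 35557 features, 21789 carried 1 symbol, and the feature with the highest mean stood for each of 19938 genes. No low values were removed. One linear model with 6 group means was fitted to 18 arrays with limma 3.58.1 in R 4.3.3 (lmFit, eBayes), with two-sided p-values adjusted over all genes (Benjamini-Hochberg) and calls below 0.05. The fit was tested on simulated data.

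The 10 genes and all lists were chosen with earlier results of these data known. Named besides them were Cebpa, up to 4 called genes of each pathway list with the largest change per comparison, and the 5 genes most like Il6 and Lcn2. For the latter, genes with only a RIKEN or predicted-gene name were passed over. Replicate numbers did not pair the arrays: correlations of same-numbered deviations were -0.24 to 0.06. Alternatives were each array left out, quantile normalization, median centring, only the groups compared, a replicate block, the mean of all features, the upper 60 percent of genes, trend and robust settings, the interquartile range as a covariate and, for counts, a 1.5-fold minimum. The fit without the 0 h arrays and the alternatives for pathway genes were chosen after seeing the data.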

Additional observations from a re-analysis of the deposited data

How the results depend on the processing

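Of 3134 values of single genes recomputed under other settings, 2980 were counted as unchanged. These kept their side of the threshold or, where given as a description, moved by less than the spread between arrays. A turn of direction alone was counted as a change only where the value passed in either fit. Values that passed in neither fit could therefore turn and still be among the 2980. As a description, the genotype differences of Il6, Lcn2, Itih4 and Saa3 at 24 h kept their direction in every setting that gave a value. With 1 array left out they ranged from -2.24 to -1.82, from -2.60 to -2.08, from -2.44 to -1.86 and from -1.29 to -1.02. With the arrays' interquartile range added as a covariate they were -0.92, -1.39, -0.54 and -1.18 (SE 0.26, 0.29, 0.37 and 0.25). None of them was past the threshold, and 4 genes of 19938 were. The array spread does not overlap between genotypes at 24 h. How much each gene's signal exceeded background was not measured, which limits what the low values of Saa1, Orm1 and Saa3 show.

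Counts of the 10 genes, which here include Il6, Lcn2 and Itih4 where their values entered the choice, moved as follows. At 2 h by genotype the count of 1 ranged from 0 to 3 with 1 array left out, and was 0 with only the groups compared, 0 with a replicate block, 0 without the 0 h arrays and 3 with the covariate, under which Lcn2 (-1.05) and Itih4 (-1.22) also passed. At 24 h the 5 became 3 with the upper 60 percent of genes, which removes low genes from the fit, and 0 with the covariate. From 0 to 2 h in control cells the 7 became 3 with quantile normalization, 4 with the covariate and 2 at 1.5-fold. From 0 to 24 h they became 4 with the upper 60 percent and 4 with the covariate. From 2 to 24 h the 3 ranged from 1 to 3 with 1 array left out and were 1 with the upper 60 percent. In Cebpa-deleted cells the 9 calls from 0 to 2 h became 4 with quantile normalization and 2 with the covariate, and the 10 from 0 to 24 h became 0 with the covariate. The 6 from 2 to 24 h ranged from 3 to 6 with 1 array left out and were 3 with only the groups compared, 0 with the covariate and 3 at 1.5-fold.

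Counts of the 130 pathway genes moved too. At 2 h the 5 ranged from 1 to 11 with 1 array left out and were 0 with only the groups compared, 8 with the upper 60 percent and 15 with the covariate. At 24 h the 63 ranged from 43 to 69 and were 0 with the covariate. In control cells from 2 to 24 h the 26 ranged from 11 to 29 and were 17 with a replicate block. In Cebpa-deleted cells from 2 to 24 h the 41 ranged from 21 to 49 and were 26 with quantile normalization, 17 with only the groups compared and 2 with the covariate. The replicate block changed no other count of calls by over 1.5 times.

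The turns of direction given next are of values that passed in either fit. Quantile normalization turned Stat3 at 24 h to 0.30. In control cells it turned Il6st, Stat3, Saa1 and Hp from 0 to 2 h to 0.08, 0.23, -0.07 and 0.03, and Il6st and Stat3 from 0 to 24 h to 0.22 and 0.35. In Cebpa-deleted cells it turned Il6st and Stat3 from 0 to 2 h to 0.18 and 0.09, and Il6st, Stat3 and Hp from 0 to 24 h to 0.32, 0.50 and 0.05. It turned the Il6st difference at 24 h minus that at 2 h to 0.01. The covariate turned Orm1 at 24 h to -0.01 and Orm1 from 2 to 24 h in Cebpa-deleted cells to -0.00. In control cells it turned Il6, Lcn2 and Saa1 from 0 to 2 h to 1.40, 0.91 and -0.57, and Itih4 and Saa1 from 0 to 24 h to 0.39 and -0.26. In Cebpa-deleted cells it turned Il6, Lcn2, Itih4 and Saa1 from 0 to 2 h to 0.49, 0.12, 0.41 and -0.06, and Il6 and Saa1 from 0 to 24 h to 0.20 and -0.51. It turned the difference at 24 h minus that at 2 h to 0.31 for Il6 and 0.67 for Itih4. Values that passed in neither fit turned as well. Among them, Itih4 from 0 to 2 h in control cells went from -0.67 to 1.62 with the covariate. In control cells from 0 to 24 h Il6 went from -0.29 to 0.80 and Lcn2 from -0.42 to 0.62. The genotype difference of Saa1 at 24 h went from 0.33 to -0.45. The cause was not tested.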

Other observations

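Lcn2 belongs to a list of siderophore and innate defence genes, whose other 17 measured members split at 24 h into 6 lower and 4 higher in Cebpa-deleted cells, and 4 lower and 2 higher after quantile normalization. Over all genes 26.4% were lower and 24.3% higher. Tlr4, the Toll-like receptor that senses lipopolysaccharide, averaged 8.02 ± 0.22 in control and 6.83 ± 0.13 in Cebpa-deleted cells (n = 3 arrays each), a difference of -1.19 (SE 0.16; limma, adjusted p = 7.49e-05). Its partner gene Ly96 averaged 7.38 ± 0.09 in control and 6.31 ± 0.02 in Cebpa-deleted cells, a difference of -1.07 (SE 0.13; adjusted p = 4.89e-05). Ly96 rose by 0.94 in control cells from 2 to 24 h (adjusted p = 0.000119) and fell by 0.49 in Cebpa-deleted cells (adjusted p = 0.00943). Cd14, the co-receptor gene, averaged 7.81 in control and 8.09 in Cebpa-deleted cells at 24 h, a difference of 0.28 (adjusted p = 0.134) that did not pass. Lbp, whose product carries lipopolysaccharide toward this receptor, also fell in Cebpa-deleted cells from 2 to 24 h, by 1.31 (adjusted p = 0.000304).

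The lysozyme gene Lyz1, which encodes an enzyme that cuts bacterial cell walls, differed by -0.84 at 24 h (SE 0.12; limma, adjusted p = 0.000127). Ltf, the lactoferrin gene, whose product binds iron and which neutrophils also express, was higher by 1.08 (SE 0.39; adjusted p = 0.0268). It averaged 7.5 ± 0.71 in control and 8.59 ± 0.64 in Cebpa-deleted cells, so its arrays varied more than those of Tlr4 or Ly96, and the call was lost in 4 of 18 fits that left out 1 array. With the arrays' interquartile range added as a covariate none of these genes passed at 24 h, with Tlr4 at -0.49, Ly96 at -0.79, Lyz1 at -0.76 and Ltf at 2.02.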
